A study of Mus musculus with 12 samples.

Results

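The comparison described here is that of the bromodomain inhibitor I-BET151 (iBET) with its solvent DMSO in mouse bone marrow-derived macrophages (BMDMs) given IgG immune complexes (IC). Its members are 6 of the 12 RNA-seq libraries, chosen by their titles, with 3 libraries labelled DMSO_IC and 3 labelled IBET_IC. All 12 libraries came from the marrow of 3 wild-type C57BL/6 mice (A, B and C), so that each mouse gave 1 library to every group, and the ages of the mice were not given in the sources used here. Marrow cells were grown for 5 days in 100 ng/mL M-CSF, with fresh medium on day 3, and were then given iBET at 5.0 µM or DMSO (5% by the labels) together with ovalbumin coated with IgG (IC) or ovalbumin alone (Ova) for 4 h. For the cultures with iBET no DMSO content is given by the labels. Whether the solvent load was equal is thus not known, and unequal solvent could not be told apart from the drug. The labels have drug and stimulus added at once, whereas the methods place the drug shortly before the stimulus. The cells are primary cultures without a transgene, and total RNA was sequenced, from cells sorted into lysis buffer by the labels or lysed in culture by the methods.

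BET proteins are nuclear readers of acetylated histones. They help to bring P-TEFb, the kinase that releases paused RNA polymerase II, to promoters and enhancers, and BET inhibitors occupy the pocket that binds acetyl-lysine. In macrophages, IC cross-link Fcγ receptors, and Syk and Src family kinases pass the signal on to NF-κB, MAP kinases, the cytoskeleton and the phagosome. The comparison asks how the macrophage transcriptome differs between inhibitor and solvent while that stimulus is present.

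The 6 libraries held 7549849 to 17387639 counts assigned to genes, of which 2.81 to 7.83% fell on Rn45s, the ribosomal RNA precursor. Levels are given as CPM, counts scaled to a common library total with TMM factors, so that every change is relative to the rest of the library. DMSO_IC from mouse A stood apart from the other DMSO_IC libraries. Of 8323 genes with a mean count of at least 100, it was over 2 times both of the others in 289, against 0 for mouse B and 105 for mouse C. List counts that moved by over 1.5 times without it are given below with that count. A call said to be lost without a mouse or a library is given with the highest adjusted p among 15 fits, each without 1 of the 12 libraries or 1 of the 3 mice. All 10 macrophage markers passed 1 CPM in an IC library, and their summed level was 6802 to 7711 CPM with DMSO and 8325 to 9161 CPM with iBET. Marker lists of B cells, T and NK cells, dendritic cells, erythroid cells, mast cells and stromal cells summed to at most 1.74 CPM in any IC library, with Cd3g, Cd209a, Hba-a1, Cpa3 and Col1a1 at 0. Neutrophil markers, of which 6 of 9 passed 1 CPM, summed to 12.2 to 49.3 CPM with DMSO and 17.5 to 44.8 CPM with iBET. Megakaryocyte markers summed to 37.7 to 70.2 CPM over the 6 libraries, nearly all of it Pf4, with Gp9 at 0. Osteoclast markers were lower with iBET (20.5 to 31.8 against 7.19 to 11.5 CPM), carried by Dcstamp, which is needed for cell fusion and fell from 12.1, 18.6 and 15.7 to 2.29, 5.23 and 2.40 CPM, while Calcr was at 0. The part of these marker lists in the results was not tested.

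**Figure D1:**
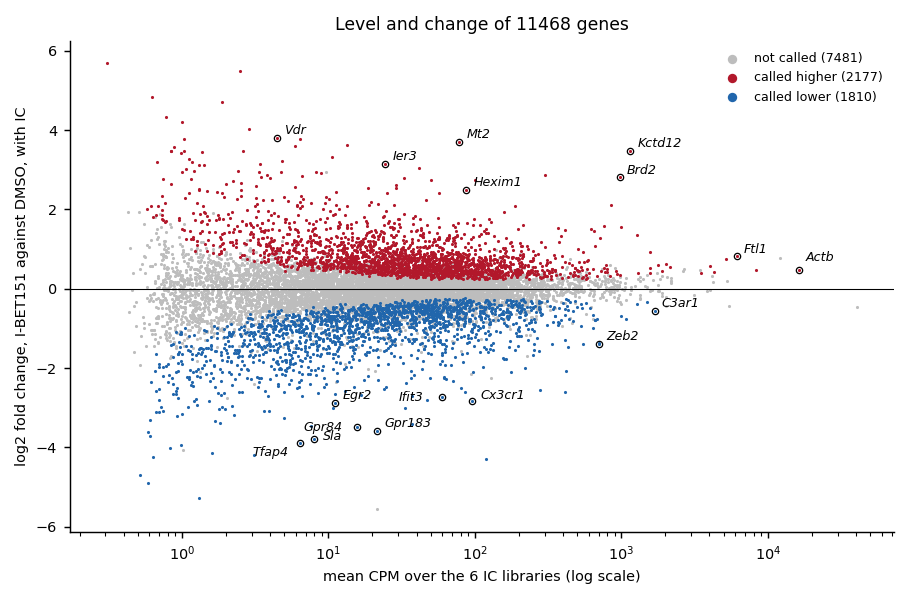
Mean level of each of 11468 tested genes over the 6 IC libraries (x, CPM, log axis) against its log2 fold change, iBET over DMSO (y). Red points are the 2177 genes called higher with iBET, blue points the 1810 called lower, grey points the remaining 7481, and ringed points are named. Genes called in both directions are spread over the range of levels.

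Relative to the rest of the library, iBET moved about as many genes up as down. Of 24421 gene symbols, 11468 had enough counts to be tested, and 3987 (34.8%) passed an adjusted p of 0.05, 2177 higher (19%) and 1810 lower (15.8%). A change of at least 2-fold was found for 571 genes higher (4.98%) and 747 lower (6.51%), and one of at least 8-fold for 32 and 33 genes. The IC libraries with iBET lay wholly above those with DMSO for 3012 genes (26.3%) and wholly below them for 2562 (22.3%), and the lists below are read against these shares and those of called genes. The median log2 fold change was -0.0037 over all tested genes. As TMM scaling centres the libraries on each other, a change in total RNA would not show in that median or in the balance of calls. From under 1 CPM in all 3 DMSO libraries to over 1 CPM in all 3 with iBET went 57 called genes, and 85 went the other way. Without mouse A's DMSO_IC library, 1730 genes were called higher and 1664 lower. In bulk libraries, fewer cells of a type and less RNA per cell cannot be told apart.

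A BET gene and several genes of P-TEFb control rose with iBET. Brd2, a BET protein itself (chromosome 17, 34112023 to 34122634, GRCm38, minus strand), was at 276, 231 and 220 CPM in DMSO_IC from mice A, B and C and at 1718, 1702 and 1696 CPM in iBET_IC. Every iBET library was far above every DMSO library (log2 fold change 2.82 ± 0.13 SE, adjusted p = 8.12e-08). Brd3 was at 57.1, 34.1 and 35.4 CPM with DMSO and 36.1, 29.5 and 25.4 CPM with iBET, lower within each mouse but overlapping between groups and not called (-0.47, adjusted p = 0.15). Brd3 was not called with the mouse as a block in edgeR either (adjusted p = 0.0748), but it was in DESeq2 with the block (0.0428) and in the 6 IC libraries fitted alone with the block (0.0106). Hexim1, the protein that holds P-TEFb inactive together with 7SK RNA and is encoded by a single exon (chromosome 11, 103116231 to 103119725), was at 32.9, 21.4 and 24.4 CPM with DMSO and at 168, 138 and 138 CPM with iBET. The groups were far apart (2.50 ± 0.17, adjusted p = 1.12e-06). Mepce, which caps 7SK RNA, rose in all mice (20.7, 21.0 and 20.8 against 43.3, 42.7 and 38.2 CPM), as did Aff4, a scaffold of the super elongation complex (0.83 ± 0.11). Of 14 genes of P-TEFb and its inhibitors, 7 were higher and 2 lower (Hexim2 and Nelfe), with a median of 0.29. Hexim2 was a low transcript at 1.09, 2.20 and 1.14 CPM with DMSO and 0.694, 0.388 and 0.12 CPM with iBET, and its call was lost without mouse B (adjusted p = 0.227). That of Nelfe, a subunit of the pausing factor NELF, was lost without mouse C (adjusted p = 0.151). Brd2 overlaps H2-DMa on the other strand, and reads of such pairs cannot be told apart here because the use of strand in the counting was not given.

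The largest rises included genes that were under 1 CPM with DMSO. Vdr, the nuclear receptor for vitamin D (chromosome 15, 97854425 to 97910630), was at 0.253, 0.88 and 0.667 CPM with DMSO and at 8.17, 7.66 and 8.99 CPM with iBET. Lgr4, a receptor for R-spondins, was at 0.842, 0.99 and 0.858 CPM with DMSO and at 10.2, 12.5 and 10.1 CPM with iBET. Both genes went from under 1 CPM to over 7 in every mouse (3.81 ± 0.32, adjusted p = 3.94e-06, and 3.60 ± 0.23, adjusted p = 6.88e-07). Kctd12, an auxiliary subunit of GABA-B receptors, started much higher, at 180, 194 and 199 CPM, and reached 2307, 1977 and 2076 CPM (3.47 ± 0.12, adjusted p = 1.46e-08). Sesn3, a stress-induced inhibitor of mTORC1, rose from 2.36, 1.98 and 1.43 to 20.2, 20.6 and 17.1 CPM. The immediate early gene Ier3 went from 4.80, 4.18 and 5.82 to 44.9, 43.7 and 42.9 CPM. In all 3 the libraries of a group lay close together and the groups far apart. Further rises by the same ranking were those of Egr1 (3.03 ± 0.19), a zinc finger factor of the immediate early response, Arid5a (2.91 ± 0.22), which binds and stabilises inflammatory mRNAs, the polyamine acetyltransferase Sat1 (2.88 ± 0.13) and the kinase Pim2 (2.85 ± 0.21). Mir5130 (3.63) lies inside Kctd12 on the same strand, and Gm7694 (2.96) inside Nos1ap, so that their values cannot be separated from their hosts'.

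Metallothioneins, small proteins that bind zinc and copper and whose genes are driven by metals and glucocorticoids, were also among the largest rises. Mt2 was at 12.2, 9.35 and 11.6 CPM with DMSO and at 169, 103 and 162 CPM with iBET. Mt1, its neighbour on chromosome 8, was at 25.8, 24.9 and 27.8 CPM with DMSO and at 208, 135 and 181 CPM with iBET. Both were far higher in all 3 mice, and least so in mouse B (Mt2 3.70 ± 0.25, adjusted p = 1.37e-06, Mt1 2.74 ± 0.16, adjusted p = 3.03e-07). The stretches upstream of both genes are shown because the genes are neighbours that moved together. They are from RefSeq on GRCm38.p6, plus strand, 5′ to 3′, at chr8:94178919-94179088 for Mt1 and chr8:94172448-94172617 for Mt2, and capitals mark the core of the metal response element, TGCACNC or TGCGCNC, on either strand.
Mt1: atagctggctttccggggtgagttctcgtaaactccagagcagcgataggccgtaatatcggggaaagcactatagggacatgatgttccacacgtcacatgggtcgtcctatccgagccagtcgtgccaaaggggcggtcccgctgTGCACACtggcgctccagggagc
Mt2: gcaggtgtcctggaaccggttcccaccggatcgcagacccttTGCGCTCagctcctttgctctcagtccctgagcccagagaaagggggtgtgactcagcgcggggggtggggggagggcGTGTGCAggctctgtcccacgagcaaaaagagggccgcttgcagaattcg
Over the 250 bases searched, Mt1 held 1 match and Mt2 held 3. The same letters occur in 7032 of 32851 promoter windows of mouse genes (21.4%), so a match describes the window and is not a site. Of 18 tested genes of metallothioneins and zinc transport, 6 were higher and 3 lower, with a median of 0.26.

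**Figure D2:**
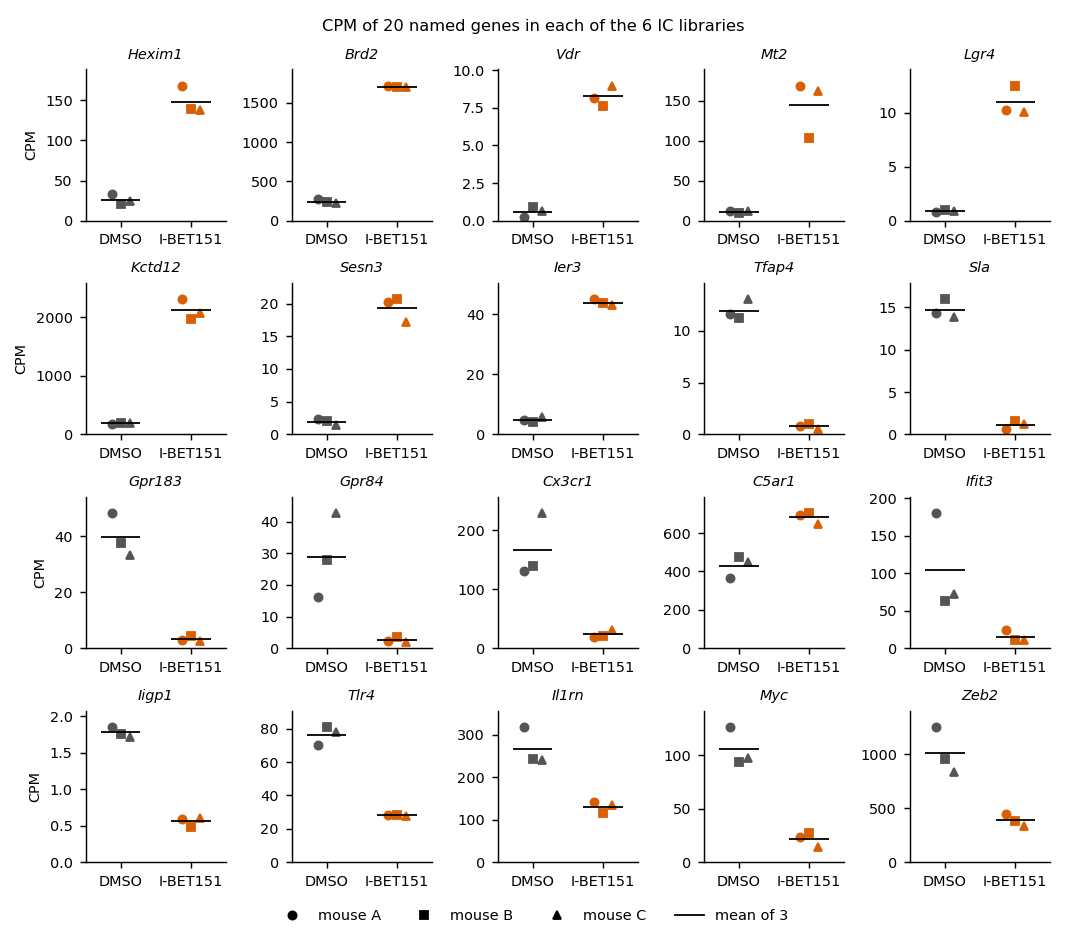
Level in CPM (y, linear from 0) of 20 genes in the 6 IC libraries, DMSO on the left and iBET on the right of each panel. Each symbol is a mouse and each line the mean of 3 libraries. The mice lie close together beside the distance between groups for genes such as Hexim1, Kctd12 and Tfap4, while for Ifit3 mouse A with DMSO lies above the others.

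The largest falls were of a transcription factor, signalling adaptors and receptors for lipids and chemokines. Tfap4, a helix-loop-helix factor and a target of Myc (chromosome 16, 4544661 to 4559854), was at 11.6, 11.2 and 13.1 CPM with DMSO and at 0.854, 0.969 and 0.479 CPM with iBET. All iBET libraries were under 1 CPM (-3.90 ± 0.24, adjusted p = 4.6e-07). Sla, an adaptor that dampens antigen receptor signalling, was at 14.4, 15.9 and 13.8 CPM with DMSO and 0.64, 1.55 and 1.20 CPM with iBET. The oxysterol receptor Gpr183 was at 48.3, 37.6 and 33.4 CPM with DMSO and 2.94, 4.46 and 2.52 CPM with iBET. Gpr84, a receptor for medium-chain fatty acids, spread more with DMSO (16.2, 27.9 and 42.7 CPM) than with iBET (2.13, 3.58 and 2.04 CPM). For each of these receptors and for Sla the groups did not overlap (Sla -3.78 ± 0.39, Gpr183 -3.59 ± 0.22, Gpr84 -3.49 ± 0.40). Flrt3, an adhesion molecule, fell by 3.46 ± 0.30 and Tmem26 by 3.02 ± 0.27. Egr2, of the same family as Egr1 but with the opposite direction, was at 21.2, 22.9 and 14.9 CPM with DMSO and 3.2, 2.91 and 1.68 CPM with iBET (-2.87 ± 0.40, adjusted p = 0.00021). Magohb, a subunit of the exon junction complex, was at 17.4 CPM in DMSO_IC from mouse A and at 4.51 and 5.15 CPM in those from mice B and C, and at 0.36 to 1.16 CPM with iBET (-3.27 ± 0.56). Without mouse A's DMSO_IC library the change of Magohb was -2.39 (adjusted p = 0.000511). Sla, Gpr183 and Flrt3 overlap Tg, Ubac2 and Macrod2 on the other strand.

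Ranked by amount of RNA rather than fold, the 10 largest gains included actins, ferritin, chaperones, a protease and a histone. Ftl1, the ferritin light chain, which has many near-identical copies in the genome, was at 4472, 4311 and 4584 CPM with DMSO and 8055, 7988 and 7507 CPM with iBET. H3f3b, which encodes the replacement histone H3.3, went from 321, 298 and 334 to 1421, 1216 and 1482 CPM, and Hspa5, the chaperone of the endoplasmic reticulum, from 702, 686 and 780 to 1920, 1671 and 1919 CPM. In these genes no library of one group reached the other group (Ftl1 0.82 ± 0.11, H3f3b 2.11 ± 0.10, Hspa5 1.35 ± 0.10). Actb rose from 11570, 13870 and 15270 to 19530, 18020 and 19100 CPM (0.48 ± 0.13, adjusted p = 0.0136), but without mouse B its adjusted p was 0.118. The cytoplasmic γ-actin gene Actg1 rose by 0.76 ± 0.16 with every mouse higher. The largest losses included genes of transcription, proteolysis and growth. Zeb2, a repressor that maintains macrophage identity, was at 1251, 958 and 830 CPM with DMSO and 445, 384 and 335 CPM with iBET (-1.38 ± 0.21, adjusted p = 0.000361). Plau, the urokinase protease, went from 687, 684 and 770 to 118, 111 and 123 CPM, and Calcrl, the receptor for adrenomedullin and CGRP, from 616, 690 and 721 to 156, 147 and 176 CPM. Both fell more than 4-fold in the fit with little spread among mice (Plau -2.61 ± 0.12, Calcrl -2.08 ± 0.12). Ccnd1, a D-type cyclin, fell from 596, 596 and 703 to 223, 210 and 255 CPM, Mdm2, the ubiquitin ligase of p53, from 982, 716 and 673 to 344, 304 and 257 CPM, and the growth factor Igf1 from 1355, 1487 and 1221 to 861, 847 and 670 CPM.

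Of the genes that pass on Fcγ receptor signals, a larger share of the kinases and adaptors was called than of the receptors. Of 7 Fc receptors and shared chains, 1 was higher (Fcgrt) and 2 lower (Fcgr2b and Fcgr3), with a median of -0.14. Fcgrt is the neonatal Fc receptor and not an Fcγ receptor, so the called Fcγ receptors were both lower. With the mouse as a block 3 were lower. Over the 15 fits without a library or a mouse, the log2 fold change was -0.70 to -0.36 for Fcgr2b and -0.56 to -0.33 for Fcgr3. The call of Fcgr2b was lost in 10 of the 15 fits, and each of the 3 calls was lost when 1 mouse was left out, Fcgrt without mouse B (adjusted p = 0.19), and Fcgr2b (0.235) and Fcgr3 (0.141) without mouse C. Fcer1g, the signalling chain of the activating receptors, was at 613, 475 and 436 CPM with DMSO and 593, 403 and 392 CPM with iBET, and the groups overlapped (-0.14, adjusted p = 0.632). Fcgr1 was at 216, 181 and 131 CPM and at 146, 93.6 and 79.0 CPM, lower within each mouse but overlapping between groups (-0.72 ± 0.28, adjusted p = 0.0637). With the mouse as a block, Fcgr1 was called (adjusted p = 0.000274). Among 21 kinases and adaptors, 3 were higher and 11 lower, with a median of -0.49. Fgr, a Src family kinase, was at 12.7, 15.1 and 16.2 CPM with DMSO and 1.92, 3.2 and 2.04 CPM with iBET, and Src itself at 7.74, 8.80 and 8.58 and at 2.08, 2.52 and 1.20 CPM. Both were far lower in all mice (Fgr -2.63 ± 0.25, adjusted p = 1.05e-05, Src -2.08 ± 0.35, adjusted p = 0.000696). Rasgrp3, an activator of Ras, fell by 2.03 ± 0.20 and the kinase Btk by 0.76 ± 0.10. Syk was at 307, 298 and 267 CPM and at 222, 204 and 195 CPM (-0.49 ± 0.10, adjusted p = 0.00317), a call lost without mouse B (adjusted p = 0.108). Pik3r1, a regulatory subunit of PI3-kinase, moved up, from 154, 152 and 134 to 316, 317 and 293 CPM (1.08 ± 0.09). Inhibitors of the pathway fell as well, 8 of 16 with 2 higher (1 without mouse A's DMSO_IC library) and a median of -0.46. The phosphatase Ptpn22 went from 132, 131 and 126 to 40.6, 31.4 and 36.8 CPM, the lipid phosphatase Inppl1 (SHIP2) from 178, 194 and 207 to 76.6, 77.4 and 70.3 CPM, and the adaptor Dok2 by -1.21 ± 0.13.

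Secreted mediators split. Of 11 tested inflammatory cytokines, 2 were higher and 4 lower. Tnfsf9, the ligand of 4-1BB, was at 3.62, 3.63 and 3.24 CPM with DMSO and 8.54, 9.30 and 8.63 CPM with iBET (1.33 ± 0.24, adjusted p = 0.000923). Tnfsf14 (LIGHT) went the other way, from 6.90, 7.59 and 7.91 to 1.98, 2.23 and 1.20 CPM, as did Il16, a chemoattractant for CD4 T cells, from 5.89, 7.37 and 8.39 to 2.08, 1.84 and 1.80 CPM. Tnfsf12 (TWEAK) fell by 1.21 ± 0.12, and Tnfsf10 (TRAIL) by 1.82, a call lost without mouse C (adjusted p = 0.245). The call of Tnf (0.73 ± 0.16) was lost without mouse B (adjusted p = 0.0884). Il1b (-0.30, adjusted p = 0.566) and Il10 (-1.45, adjusted p = 0.153) were not called, and Il1a and Il6 had too few counts to be tested. Of 15 anti-inflammatory and repair factors, 3 were higher (1 without mouse A's DMSO_IC library) and 5 lower. Tgfb1 rose from 134, 143 and 150 to 258, 234 and 233 CPM (0.76 ± 0.12), while Il1rn, the antagonist of the IL-1 receptor, fell from 318, 242 and 240 to 141, 115 and 134 CPM (-1.04 ± 0.13, adjusted p = 7.14e-05). The groups did not overlap for either gene.

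Most chemokines were not called (13 of 19), while the called CC members were higher and the called CXC members lower. Of 10 CC chemokines, 3 were higher and 0 lower, with a median of 0.06. Of 9 CXC and other chemokines, 0 were higher and 3 lower, with a median of 0.03. Both medians lay near that of all tested genes (-0.0037), so neither list moved as a whole. Ccl7, a ligand of Ccr2, was at 38.6, 23.8 and 50.3 CPM with DMSO and 122, 71.0 and 93.6 CPM with iBET (1.34 ± 0.30, adjusted p = 0.00521). Ccl3 and Ccl4, ligands of inflammatory leucocyte receptors, were the other members that rose (0.75 and 1.13). All 3 calls were lost without mouse A, with adjusted p of 0.135 for Ccl7, 0.182 for Ccl3 and 0.16 for Ccl4. Ccl2, the main monocyte chemoattractant, was at 127, 89.2 and 213 CPM with DMSO and 309, 192 and 283 CPM with iBET, higher within each mouse but with overlapping groups (0.87 ± 0.33, adjusted p = 0.061). With the mouse as a block Ccl2 was called (adjusted p = 0.00202). Cxcl16, a scavenger and chemokine at the cell surface, fell from 269, 217 and 217 to 146, 129 and 107 CPM (-0.88 ± 0.15), Cxcl3 fell by 1.93 ± 0.39 from near 2 CPM, and Cxcl10, induced by interferon, fell by 1.58 with a call lost in 9 of the 15 fits, among them that without mouse A (adjusted p = 0.247).

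Receptors for chemoattractants were lower as a group. Of 8 tested chemokine receptors, 6 were lower and 0 higher, with a median of -2.04, and of 16 other chemoattractant receptors 10 were lower and 1 higher, with a median of -1.16. Ccr2, which draws monocytes into inflamed tissue (chromosome 9, 124101950 to 124113557), was at 158, 138 and 143 CPM with DMSO and 28.7, 21.4 and 22.1 CPM with iBET. Ccr1 was at 40.0, 47.2 and 35.4 CPM and at 8.27, 6.98 and 5.75 CPM. The fractalkine receptor Cx3cr1 was at 132, 140 and 229 CPM and at 19.1, 20.6 and 31.2 CPM, with mouse C highest in both groups. All 3 receptors were lower in every mouse with no overlap (Ccr2 -2.60 ± 0.22, Ccr1 -2.52 ± 0.24, Cx3cr1 -2.83 ± 0.31). Ptafr, the receptor for platelet-activating factor, fell from 81.4, 114 and 85.3 to 28.1, 26.6 and 24.4 CPM. C3ar1, the receptor for C3a, was among the largest losses of RNA, from 2036, 2159 and 1836 to 1580, 1351 and 1172 CPM, but its call was lost without mouse B (adjusted p = 0.232). The single receptor that rose was C5ar1, for complement C5a, at 365, 478 and 449 CPM with DMSO and 693, 704 and 648 CPM with iBET (0.66 ± 0.14, adjusted p = 0.00255). Cytokine receptors were higher in 6 of 36 cases and lower in 7, shares close to those of all genes. Lifr rose from 7.83, 7.92 and 8.48 to 36.8, 35.5 and 35.1 CPM and Il17ra from 23.1, 26.1 and 24.1 to 63.4, 64.2 and 62.8 CPM, whereas Il18rap, a chain of the IL-18 receptor, fell by 1.85 ± 0.38. Csf1r, the receptor for M-CSF, was at 729, 1028 and 1079 CPM and at 908, 962 and 912 CPM, and the groups overlapped (-0.03, adjusted p = 0.909).

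Toll-like receptors, which sense microbial products at the surface or in endosomes, fell in 8 of 9 cases with 0 higher, and their median was -1.27. Tlr13, the sensor of bacterial ribosomal RNA, was at 265, 318 and 276 CPM with DMSO and 71.4, 66.5 and 61.6 CPM with iBET. Tlr4, the receptor for lipopolysaccharide, was at 70.2, 81.2 and 78.3 CPM and at 28.5, 28.1 and 27.6 CPM, and Tlr7, a sensor of single-stranded RNA, at 66.2, 76.7 and 70.9 and at 32.3, 30.2 and 27.4 CPM. No library of one group reached the other (Tlr13 -2.10 ± 0.18, adjusted p = 3.74e-06, Tlr4 -1.45 ± 0.11, adjusted p = 2.01e-06, Tlr7 -1.24 ± 0.17, adjusted p = 0.000137). Tlr2, for lipoproteins, was the member not called, at 72.8, 101 and 107 CPM and at 75.6, 82.7 and 89.2 CPM (adjusted p = 0.407). Calls of 3 receptors were lost without mouse B, Tlr3 (adjusted p = 0.0643), Tlr6 (0.0545) and Tlr8 (0.165). Cd180, a homologue of Tlr4 that partners other receptors, fell from 391, 349 and 316 to 105, 80.0 and 79.0 CPM, and the adaptor Ticam2 went from 22.5, 19.9 and 23 to 5.5, 6.01 and 6.71 CPM. Tollip, which restrains signalling from these receptors, rose from 77.3, 110.3 and 99.9 to 159.6, 157 and 161 CPM. Of 17 co-receptors, adaptors and kinases, 2 were higher and 5 lower. Inflammasome genes were more often lower, with 9 of 18 lower and 2 higher. Mefv (pyrin) fell from 4.63, 3.74 and 3.43 to 0.587, 0.581 and 0.24 CPM and Nlrp3 from 105, 118 and 149 to 33.9, 44.5 and 41.1 CPM (-1.64 ± 0.19). The flagellin sensor Naip5 rose (0.92 ± 0.12), as did its close paralogue Naip2 (0.64 ± 0.10), and reads shared between the copies could be split in either way.

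Interferon-stimulated genes were often lower with iBET. Of 59 tested antiviral effectors, 29 were lower and 0 higher (22 and 1 without mouse A's DMSO_IC library), with a median of -0.55, and of 15 interferon-induced GTPases 12 were lower and 0 higher (11 and 0 without that library), with a median of -1.49. Ifit3, which binds viral RNA together with Ifit1, was at 180, 62.8 and 71.6 CPM with DMSO and at 24.6, 11.1 and 10.7 CPM with iBET (-2.73 ± 0.48, adjusted p = 0.00125). Mouse A was highest in both groups, the groups did not overlap, and without mouse A's DMSO_IC library the change of Ifit3 was -2.11 (adjusted p = 0.00457). Ifit1 was at 74.9, 71.2 and 81.2 CPM and at 22.7, 21.1 and 28.8 CPM, without that excess of mouse A (-1.65 ± 0.18, adjusted p = 2.88e-05). Slfn8 fell from 128, 90.2 and 84.0 to 21.9, 22.8 and 19.8 CPM, and Rtp4 from 120, 85.7 and 90.8 to 33.2, 20.2 and 24.4 CPM. The GTPases Ifi47 (8.08, 7.48 and 10.4 against 2.62, 1.74 and 2.04 CPM) and Iigp1 (1.85, 1.76 and 1.72 against 0.587, 0.484 and 0.599 CPM) were low with DMSO and lower still with iBET. Summed over the 59 antiviral genes, mouse A's DMSO_IC library held 8066 CPM against 5737 and 5807 in the others, and the iBET libraries held 5489, 4104 and 4319. Ifit3b (-2.69 ± 0.55, and -2.03 without that library) is a near copy of Ifit3, so its reads are uncertain. The stretches upstream of Ifit1 and Ifit3 are shown because genes of this list moved together. They lie at chr19:34640719-34640888 and chr19:34583359-34583528 (RefSeq, GRCm38.p6, plus strand, 5′ to 3′), and capitals mark the core of the interferon response element, GAAANNGAAA, read on either strand.
Ifit1: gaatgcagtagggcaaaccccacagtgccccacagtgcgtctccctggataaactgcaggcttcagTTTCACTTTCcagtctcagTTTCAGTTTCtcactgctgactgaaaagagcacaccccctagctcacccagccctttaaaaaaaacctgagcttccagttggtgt
Ifit3: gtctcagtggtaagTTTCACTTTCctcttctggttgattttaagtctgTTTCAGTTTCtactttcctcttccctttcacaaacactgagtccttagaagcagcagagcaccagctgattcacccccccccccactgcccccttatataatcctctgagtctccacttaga
Each of these windows held 2 matches. The same letters occur in 978 of 32851 promoter windows (2.98%).

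The factors that drive interferon-stimulated genes did not move together. Stat2 rose from 63.5, 53.5 and 60.8 to 105, 104 and 104 CPM (0.82 ± 0.09, adjusted p = 2.33e-05) and Stat3 from 77.5, 78.1 and 79.9 to 136, 155 and 117 CPM (0.79 ± 0.12). Stat4 fell from 3.87, 3.19 and 4.38 to 1.44, 1.26 and 1.68 CPM (-1.39 ± 0.31). Of 11 JAK and STAT genes, 4 were higher and 3 lower. Among 10 interferon regulatory factors and their cofactors, 2 were higher and 3 lower. Irf2, which opposes Irf1 at shared sites, fell from 134, 88.8 and 84.1 to 44.5, 35.8 and 38.4 CPM (-1.37 ± 0.27). The other 4 calls of that list were lost when 1 mouse was left out, Irf4 without mouse C (adjusted p = 0.0654, with a log2 fold change of 1.59 in the 12 libraries and 2.18 without mouse A's DMSO_IC library), and Irf8 (0.271), Irf9 (0.0913) and Irf2bpl (0.0666) without mouse B.

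NF-κB genes split too. Subunits and kinases were higher in 6 of 16 cases and lower in 2, with a median of 0.24, and inhibitors and modulators were higher in 4 of 17 and lower in 6, with a median of -0.21. Nfkbiz, a nuclear IκB protein that aids secondary response genes, was at 21.3, 22.1 and 22.4 CPM with DMSO and 64.0, 73.5 and 53.3 CPM with iBET (1.54 ± 0.15, adjusted p = 1.1e-05). Traf1 went the other way, from 61.1, 63.9 and 63.5 to 13.3, 14.5 and 14.1 CPM (-2.17 ± 0.15, adjusted p = 1.31e-06). Neither gene's groups overlapped. Ripk2, the kinase of NOD signalling, rose from 20.7, 22.6 and 27.2 to 41.9, 39.1 and 43.3 CPM. Ikbke (-1.14 ± 0.12) and Ikbkg (-0.36, lost without mouse C, adjusted p = 0.225) were the lower members among subunits and kinases.

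Immediate early transcription factors, which are induced within minutes of a stimulus, were changed in 20 of 27 cases, 12 higher and 8 lower. Fos was at 333, 449 and 355 CPM with DMSO and 153, 138 and 96.6 CPM with iBET (-1.55 ± 0.22, adjusted p = 0.000232), and Fosl1 fell from 14.9, 13.8 and 11.7 to 3.74, 3.00 and 1.92 CPM. Nr4a2, an orphan nuclear receptor, rose from 1.94, 1.43 and 1.91 to 6.67, 5.52 and 8.03 CPM. The mice of a group agreed in each case. Among feedback genes, Dusp6, the phosphatase of ERK, rose from 43.2, 41.8 and 50.1 to 151, 144 and 159.9 CPM (1.75 ± 0.11), and Zfp36, which destabilises cytokine mRNAs, from 114, 111 and 84.3 to 343, 273 and 256 CPM (1.5 ± 0.19). Of the 23 feedback genes, 5 were higher and 3 lower, the latter being 5 with the mouse as a block.

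Among 42 transcription factors of the macrophage lineage, 11 were higher and 13 lower. Spi1 (PU.1), the factor that sets the myeloid programme (chromosome 2, 91082390 to 91115756), was at 232, 253 and 238 CPM with DMSO and 73.2, 78.7 and 63.3 CPM with iBET. Every iBET library lay far below every DMSO library (-1.75 ± 0.12, adjusted p = 7.61e-07). Cebpb was not called (-0.27, adjusted p = 0.136). Zeb1 fell with Zeb2, from 10.9, 9.24 and 7.15 to 1.87, 1.55 and 1.68 CPM, and Prdm1 (Blimp-1) fell by 2.06 ± 0.28, whereas Nfil3, a leucine zipper repressor, rose from 5.13, 2.86 and 4.48 to 17.2, 16.7 and 20.9 CPM and Epas1 (HIF-2α) by 2.09 ± 0.28. Nuclear receptors of lipid sensing parted as well. Ppard rose from 3.87, 3.41 and 3.43 to 10.9, 11.8 and 11.0 CPM (1.65 ± 0.19). Pparg fell from 70.9, 57.0 and 49.5 to 17.7, 12.8 and 10.8 CPM, and Nr1h3 (LXRα) from 23.2, 27.1 and 18.7 to 6.67, 6.59 and 3.96 CPM. Of 25 nuclear receptors, 6 were higher and 4 lower, shares near those of all genes, with a median of -0.04.

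Myc, the growth-promoting transcription factor that BET inhibitors are best known to lower, was at 127, 94.1 and 97.7 CPM with DMSO and 23.7, 27.4 and 14.5 CPM with iBET (-2.27 ± 0.23, adjusted p = 2.61e-05). Its paralogue Mycl went from 3.79, 6.71 and 7.24 to 0.427, 0.194 and 0.24 CPM (-4.18, and -4.96 without mouse A), and the antagonist Mxd1 rose from 9.93, 10.8 and 10.7 to 35.9, 36.5 and 39.0 CPM (1.83 ± 0.10). All libraries of one group lay apart from the other group in each. Of 40 ribosome biogenesis genes, 17 were lower and 1 higher, with a median of -0.43, and 14 were lower and 0 higher without mouse A's DMSO_IC library. The call of the higher one, Rrn3, was lost in all 15 fits without a library or a mouse (highest adjusted p = 0.255), and 2 were higher with the mouse as a block. Gar1 and Dkc1, partners in the complex that pseudouridylates ribosomal RNA, were highest in mouse A with DMSO (33.8 against 14.5 and 13.8 CPM for Gar1, 59.4 against 38.4 and 44.5 CPM for Dkc1), and lay at 3.78 to 6.78 and 13.9 to 14.6 CPM with iBET. Summed over the 40 genes, that library held 5932 CPM against 3982 and 4136 in the other DMSO libraries and 3566 to 3866 with iBET. Ribosomal protein genes were called in 2 of 64 cases, both higher, with a median of -0.08, and 6 of 64 were higher with the mouse as a block.

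Replication and mitosis genes were lower in 9 of 49 cases, with 0 higher and a median of -0.70, and with the mouse as a block 36 were lower. Regulators of the G1 phase were higher in 9 of 23 and lower in 4. Cdkn2b (p15) rose from 0.926, 0.66 and 0.953 to 5.07, 6.2 and 7.07 CPM, and Cdkn1a (p21), a target of p53, from 136, 206 and 175 to 397, 416 and 366 CPM (1.19 ± 0.18). Tob1, an antiproliferative partner of the deadenylase complex, rose from 11.4, 9.79 and 8.77 to 40.3, 33.8 and 43.8 CPM. The inhibitors rose in every mouse, while Ccnd1 fell as given above. Apoptosis genes split, with 8 of 29 higher and 11 lower. Pmaip1 (Noxa) went from 14.2, 11.1 and 12.0 to 34.5, 28 and 35.1 CPM, while Bcl2a1d, one of several near-identical Bcl2a1 copies whose reads may be shared, fell by 2.42 ± 0.52.

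**Figure D3:**
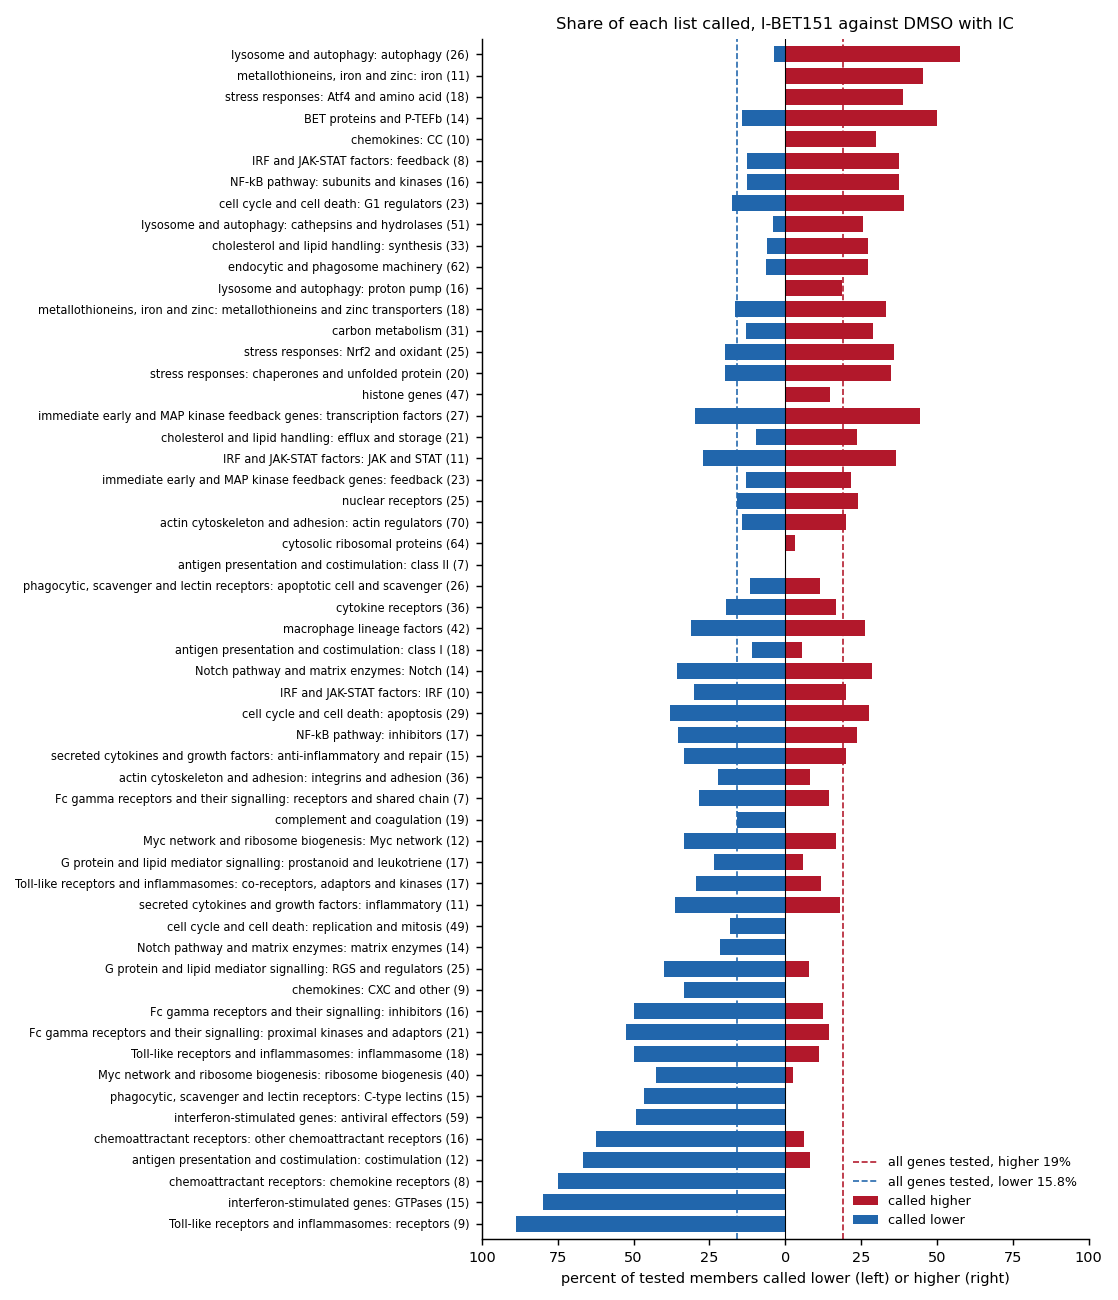
Percent of tested members called lower (left) and higher (right) with iBET for each gene list with at least 7 tested members, with the number of members in brackets. Dashed lines mark the shares among all tested genes, 15.8% lower and 19% higher. Toll-like receptors, chemokine receptors and interferon-induced GTPases reach furthest left, and autophagy genes furthest right.

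Autophagy genes were the list most often higher, with 15 of 26 higher, 1 lower (Atg7) and a median of 0.44. Ulk1, the kinase that starts autophagy, was at 14.3, 22.6 and 20.9 CPM with DMSO and 57.6, 68.2 and 70.2 CPM with iBET (1.77 ± 0.15, adjusted p = 5.42e-06). Its relative Ulk2 rose from 32.1, 33.5 and 34.5 to 80.9, 85.4 and 77.1 CPM and Atg12 from 40.6, 47.1 and 47.5 to 102, 95.2 and 106 CPM. No iBET library reached the range of DMSO for any of them. The call of Atg7 was lost in 11 of the 15 fits, among them that without mouse B (adjusted p = 0.306). Cathepsins and other lysosomal hydrolases were higher in 13 of 51 cases (7 without mouse A's DMSO_IC library) and lower in 2, with a median of 0.25. Neu1, the lysosomal sialidase, rose from 37.9, 50.1 and 47.2 to 82.7, 93.1 and 79.2 CPM. Ctsb, among the most abundant transcripts, went from 6850, 7133 and 6831 to 10480, 9211 and 9419 CPM, and its call was lost without mouse B (adjusted p = 0.0694).

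Endocytic and phagosomal traffic genes were higher in 17 of 62 cases and lower in 4, with a median of 0.19. Snx18, a membrane-bending sorting nexin, rose from 55.6, 67.8 and 59.6 to 193, 209 and 188 CPM, and Pikfyve, the kinase that makes the lipid of late endosomes, from 111, 117 and 97.3 to 253, 247 and 239 CPM. Rin3, an exchange factor for Rab5, fell by 1.37 ± 0.16. Uptake receptors did not move as 1 group. Mertk, which takes up apoptotic cells, rose from 8.50, 10.0 and 5.72 to 20.6, 22 and 14.9 CPM (1.25 ± 0.26), Msr1, the class A scavenger receptor, fell from 359.9, 341 and 319.9 to 176, 155 and 158 CPM (-1.06 ± 0.10), and Cd36 lay at 1560, 1828 and 1514 CPM with DMSO and 1700, 1619 and 1493 CPM with iBET (-0.03, adjusted p = 0.912). Scavenger and bridging receptors were higher in 3 of 26 cases and lower in 3, the latter being 5 with the mouse as a block. C-type lectins were lower in 7 of 15 cases with 0 higher (1 with the mouse as a block), among them Clec4d, a receptor for fungal glycans, from 256, 159 and 182 to 85.1, 56.5 and 62.9 CPM.

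Cytoskeletal regulators were higher in 14 of 70 cases (9 without mouse A's DMSO_IC library) and lower in 10, shares close to those of all genes. Vcl (vinculin), which links integrins to actin, rose from 61.7, 67.5 and 73.9 to 174, 173 and 192 CPM and the GTPase Rhob from 30.6, 43.0 and 38.7 to 104, 98.2 and 128 CPM. Fmnl1, a formin of leucocytes, fell from 238, 239.6 and 282 to 85.8, 90.7 and 98.2 CPM (-1.47 ± 0.13). Integrins and adhesion molecules were lower in 8 of 36 cases and higher in 3, and Sema4d, a semaphorin, fell from 376, 528 and 536 to 75.1, 82.4 and 86.0 CPM (-2.57 ± 0.17). Genes of MHC class II presentation were called in 0 of 7 cases, with a median of 0.22. Genes of costimulation, a list that also holds inhibitory members, were lower in 8 of 12 cases and higher in 1 (Icosl, lost without mouse B, adjusted p = 0.222). Cd40, a costimulatory receptor counted here among the cytokine receptors, was called higher. Its log2 fold change was 0.87 to 1.08 over the 15 fits without a library or a mouse, and its call was lost without mouse B (adjusted p = 0.0613). Cd80 fell from 6.65, 7.92 and 6.2 to 2.19, 1.45 and 2.04 CPM and the inhibitory receptor Havcr2 (TIM-3) from 112, 102 and 111 to 28.5, 27.3 and 30.8 CPM (-1.91 ± 0.09, adjusted p = 6.64e-08).

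**Figure D4:**
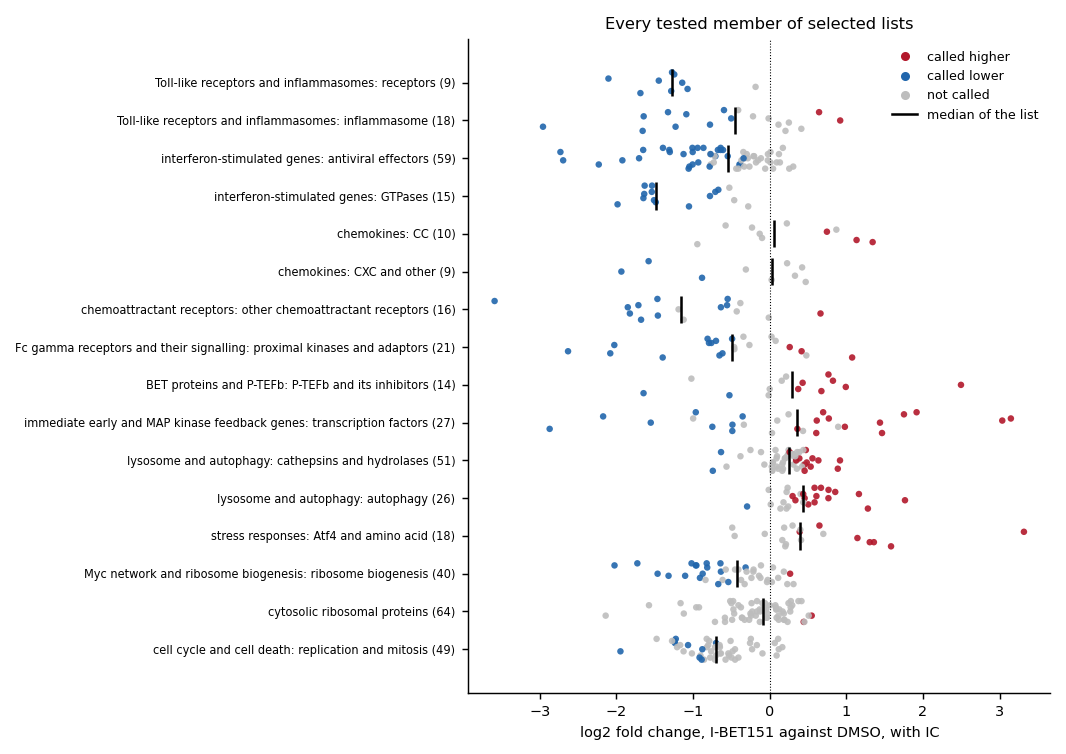
Log2 fold change, iBET over DMSO with IC (x), of every tested member of 16 gene lists (y). Each point is a gene coloured by its call, and the black bar is the median of the list. Most members of the interferon and Toll-like receptor lists lie left of 0 and most autophagy members right of it, while immediate early factors spread to both sides.

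Genes of the response to oxidants, damaged protein and amino acid shortage were more often higher than lower. Of 25 genes of oxidant handling, which take in targets of the oxidant-sensing factor Nrf2, its inhibitor and subunits of NADPH oxidase, 9 were higher and 5 lower. Hmox1, which degrades haem and is a target of Nrf2 outside that list, was at 409, 591 and 513 CPM with DMSO and 1274, 1676 and 1491 CPM with iBET (1.55 ± 0.15, adjusted p = 1.32e-05), and Gclc, which makes the precursor of glutathione, at 39.4, 45.0 and 44.1 and at 109, 142 and 154 CPM. Srxn1 rose in every mouse (142, 208 and 213 against 414, 584 and 640.5 CPM), while the cystine carrier Slc7a11 fell (6.56, 11.3 and 9.82 against 2.51, 4.94 and 3.36 CPM). Of 18 genes of amino acid supply, sestrins and Atf4, the factor of the integrated stress response, with its targets, 7 were higher and 0 lower, with a median of 0.40. Sesn2 rose from 6.99, 10.6 and 10.1 to 26.8, 27.7 and 28.2 CPM. Chaperones were higher in 7 of 20 cases and lower in 4 (1 without mouse A's DMSO_IC library). Hspa1a, which has a near-identical copy in Hspa1b and shares reads with it, went from 6.90, 8.58 and 9.44 to 67.3, 58.6 and 47.0 CPM (2.80 ± 0.16). Genes of iron handling were higher in 5 of 11 cases with 0 lower.

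Histone genes were higher in 7 of 47 cases and lower in 0, both below the shares of all genes. Their median was -0.23, and 3 were lower with the mouse as a block. H1f0, a linker histone of non-dividing cells, rose from 32.0, 24.5 and 18.9 to 97.2, 84.5 and 77.3 CPM. In metabolism, genes of sugar and amino acid use were higher in 9 of 31 cases and lower in 4, and 16 were higher with the mouse as a block. Odc1, the first enzyme of polyamine synthesis, rose from 393, 387 and 497 to 908, 885 and 920.5 CPM (1.09 ± 0.13). Irg1, which makes itaconate, fell in every mouse (-1.88 ± 0.28), as did the glucose carrier Slc2a3 (14.1, 20.2 and 18.4 against 5.66, 3.49 and 5.27 CPM). Genes of cholesterol and fatty acid synthesis were higher in 9 of 33 cases and lower in 2 (Elovl6 and Scd2, both of fatty acid synthesis, the call of Scd2 being lost without mouse B, adjusted p = 0.185). Cpt1a, which brings fatty acids into mitochondria, rose from 90.6, 118 and 112 to 211, 222 and 204 CPM, and Elovl6, which lengthens them, fell from 13.3, 12.1 and 11.4 to 4.32, 5.14 and 3.96 CPM. Ptges, the inducible synthase of prostaglandin E, fell from 6.73, 8.91 and 7.24 to 1.60, 1.16 and 1.32 CPM (-2.45 ± 0.36). Regulators of G protein signalling were lower in 10 of 25 cases and higher in 2 (1 without mouse A's DMSO_IC library).

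Called genes were longer than those not called. The median gene span was 31.3 kb for genes higher with iBET, 25.5 kb for those lower and 20.3 kb for those not called. Of genes under 3 kb, 12.0% were higher and 7.53% lower, and of genes over 100 kb, 23.4% were higher and 19.6% lower. Long intergenic RNAs were called lower in 15 of 57 cases and higher in 1, against 1737 lower and 2139 higher of 10910 protein-coding genes. These shares are descriptions over genes, and the part of count depth in them was not tested.

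The same drug was given with ovalbumin alone, and its effects there are set beside those with IC. The Ova comparison uses libraries of its own from the same mice. Vdr rose by 3.02 with Ova and 3.81 with IC on the log2 scale, Mt2 by 3.40 and 3.70, Kctd12 by 3.19 and 3.47, and Hexim1 by 2.44 and 2.50. Tfap4 fell by 2.93 with Ova and 3.90 with IC, Sla by 4.23 and 3.78, and Ifit3 by 2.42 and 2.73. No gene's drug effect differed between IC and Ova at an adjusted p of 0.05 in edgeR (0 of 11468, 0%), where the lowest adjusted p was 0.388 and 292 genes were under 0.05 before adjustment (443 with the mouse as a block), while DESeq2 called 4. One of the Ova libraries with DMSO, from mouse A, had 77.4% of its counts on Rn45s, which limits this comparison. Among the genes with the smallest unadjusted p, Il1rn fell with IC (-1.04 ± 0.13) and had a log2 difference of -0.14 ± 0.13 with Ova, where its level was 147 ± 10.4 CPM with DMSO and 133 ± 9.15 CPM with iBET (SD, n = 3). Jdp2, a repressor of AP-1, went from 60.5, 48.2 and 41.9 to 26.8, 26.7 and 23.6 CPM with IC, and was at 14.1 ± 2.22 CPM with DMSO and 16.9 ± 1.59 CPM with iBET in Ova (SD, n = 3). The differences between stimuli were -0.89 ± 0.18 for Il1rn and -1.26 ± 0.23 for Jdp2 (adjusted p = 0.701 and 0.642), and neither passed the threshold.

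**Figure D5:**
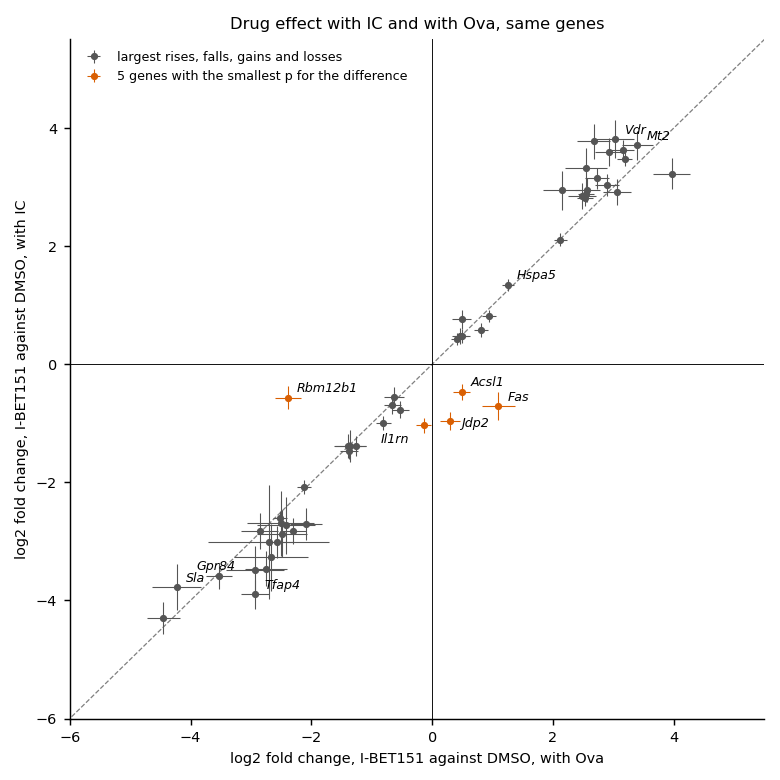
Log2 fold change of iBET over DMSO with Ova (x) and with IC (y) for the named genes with the largest rises, falls, gains and losses, with bars of 1 SE, and in orange the 5 genes with the smallest p for a difference between stimuli. The dashed line marks equal effects, and most genes lie close to it.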

How the data were processed

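RNA of 12 BMDM cultures was sequenced as paired reads. Per the labels and the methods, the authors trimmed the reads with Trim Galore, aligned them to mm10 with HISAT2 and counted reads per gene with featureCounts. Which annotation was used, whether counting was stranded and how multiply mapped reads were handled are not given in the sources used here. The authors deposited raw counts per gene and a normalized signal, the counts divided by a DESeq2 size factor for each library.

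The counts were tested with edgeR 4.0.16 (quasi-likelihood F test, filterByExpr with a minimum count of 10, TMM, Benjamini-Hochberg adjustment, R 4.3.3) in all 12 libraries with 4 groups and no block, and fold changes of iBET over DMSO are log2 ± SE. Genes with an adjusted p below 0.05 were called. The labels tie 1 library of each group to each mouse. Deviations from group means of libraries of the same mouse correlated at -0.072 to 0.542 (18 pairs, median 0.263), those of different mice at -0.499 to 0.271 (36 pairs, median -0.134), and the mouse was therefore also fitted as a block. Alternatives were DESeq2 1.42.0, limma 3.58.1 on the deposited signal with a pseudocount of 1, sva 3.50.0 and libraries left out in turn. No pair of libraries within an IC group agreed within sampling noise. Only the reported edgeR fit was first run on simulated counts with known changes. Those counts held no differences between mice, and the alternatives were not run on them.

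Gene names were matched to GENCODE vM21 (23376 symbols directly, 677 by a synonym, 368 not). Named genes were a panel of 26, the 15 largest rises and falls with a mean count of at least 50, the 10 largest gains and losses of CPM, up to 3 in each direction per list, members of small counts and the 5 genes with the smallest interaction p; Mt1, Ifit1, Syk, Btk, Rtp4, Ccr1, Zfp36, Tlr2, Tlr3, Tlr6, Tlr7, Tlr8 and Dcstamp were added after their values were seen. The members and the lists were chosen with earlier results of these data known. A few genes selected by the rule are left out.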

Additional observations from a re-analysis of the deposited data

Results flagged for a closer look

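For 2 named genes the drug effect had opposite signs with IC and with Ova in all 3 mice, which is what marked them. Both were named for being among the 5 genes with the smallest unadjusted p for the difference between stimuli. Their signs thus come from the values that selected them and are not separate evidence. The difference between stimuli did not pass the threshold for either.

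Fas, the death receptor of the TNF family, was at 4.34 ± 0.619 CPM with DMSO and 2.65 ± 0.702 CPM with iBET in IC (SD, n = 3), and at 1.42 ± 0.119 and 2.96 ± 0.0967 CPM in Ova. The log2 difference between the drug effects was -1.80 ± 0.36 (adjusted p = 0.701). Within mice A, B and C the effect on Fas was -0.60, -0.912 and -0.584 with IC and 0.815, 1.085 and 1.017 with Ova. Without mouse B the call with IC was lost (adjusted p = 0.157).

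Acsl1, which activates long-chain fatty acids, was at 134 ± 9.99 CPM with DMSO and 97.4 ± 3.63 CPM with iBET in IC (SD, n = 3), and at 62.5 ± 14.1 and 89.1 ± 5.78 CPM in Ova. The log2 difference between the drug effects was -0.95 ± 0.19 (adjusted p = 0.701). Within mice A, B and C the effect on Acsl1 was -0.293, -0.583 and -0.509 with IC and 1.007, 0.292 and 0.309 with Ova, the last set including the Ova library of mouse A with 77.4% of its counts on Rn45s. Without mouse B the call with IC was lost (adjusted p = 0.179).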

How the results depend on the processing

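The number of genes called with IC was 3987 in the fit reported and 3368 to 5004 under other tools, filters, scalings and blocks at the same threshold. At an adjusted p of 0.01 it was 2496 (1397 higher, 1099 lower). With the mouse as a block and without the Rn45s-rich Ova library, 5159 genes were called (2573 higher, 2586 lower). Leaving out 1 library or 1 mouse, without a block, gave 1769 to 4469 genes called, 968 to 2266 higher and 801 to 2203 lower. The low counts were without mouse B (1769, with 968 higher and 801 lower) and without mouse C (2497, with 1362 higher and 1135 lower), while the fit without mouse A gave 3852 (2065 higher, 1787 lower), and the cause was not tested. Calls of at least 2-fold numbered 997 to 1424 when 1 library or 1 mouse was left out without a block, against 1318 reported. They numbered 806 in a fit to genes with at least 10 counts in every library. With the mouse as a block 4829 genes were called. With the mouse as a block in edgeR, the calls of named genes were otherwise as reported, and list counts that moved by over 1.5 times are given with the lists. The interaction of drug and stimulus was called for 4 genes by DESeq2, 7 by DESeq2 with the mouse as a block and 1 without mouse B's iBET_IC library, with a range of 0 to 1 over the fits in edgeR that left out a library. Scaling by DESeq2 size factors moved the median log2 fold change by -0.0293 and the share of calls that were higher from 54.6 to 50.6%. Fcgr4, Csf1r and Cd36, none of them called, changed sign when libraries were left out, with ranges of -0.2171 to 0.3241, -0.2135 to 0.0924 and -0.111 to 0.0625. Depth limits the genes near 1 CPM, for which the counting error alone is large.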
